A study of Mus musculus with 2 samples.

Results

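Imprinted genes are genes that are expressed mainly from the chromosome of one parent. A list of 50 such mouse genes at 19 loci was followed here, and a gene was measured when a probe set of the array carried its symbol and no other. That held for 42 of the 50 genes, each with 1 probe set, among 19938 genes measured in all, and these lay at 18 of the 19 loci. The 8 genes without a probe set of their own were H19, Kcnq1ot1, Gnas, Mirg, Snrpn, Ube3a, Slc22a3 and Zrsr1, so no imprinted gene of the Gnas locus was measured. By the usual assignment 21 of the measured genes are expressed from the maternal allele and 20 from the paternal allele, and Grb10 switches its allele with the isoform. The allele was not measured on the arrays, and for many of these genes imprinting is restricted to placenta or brain.

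RNA of mouse embryonic stem (ES) cells was hybridized to 2 Affymetrix arrays whose probes are spread along the exons of each gene. The cells were ROSA26-rtTA ES cells, which make the doxycycline-dependent activator rtTA from a ubiquitous locus, and they carried the transgene TRE-mCTCFL-V5-GFP-neomycin after selection in G418. CTCFL, also called BORIS, is a relative of the insulator protein CTCF found in male germ cells, and the transgene fuses it to green fluorescent protein (GFP) and a V5 tag. On the induced array were cells after 3 days of doxycycline that were sorted on GFP, and on the non-induced array were cells of the same transgenic kind, also grown on gelatin with leukemia inhibitory factor, that received no doxycycline and no sort. How many clones were used was not given in the sources used here. With 1 array per group there were no replicates and no tests, so every difference below describes these arrays alone. Doxycycline, sorting and CTCFL cannot be told apart. In a bulk sample, fewer cells that express a gene and less RNA per cell cannot be told apart either.

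Imprinting is set at imprinting control regions, stretches of DNA that are methylated in the egg or in the sperm and keep that methylation after fertilization, when the rest of the genome loses it. At the H19 and Igf2 locus the unmethylated maternal control region binds CTCF, which insulates Igf2 from its enhancers, while at the Kcnq1ot1 and Igf2r loci a long noncoding RNA from the paternal allele silences its neighbours in cis. The zinc finger protein ZFP57 with its partner TRIM28 protects the methylated allele. CTCFL was once proposed to take part in setting these marks in the male germ line, and the question here is how RNA of imprinted genes stood on the 2 arrays.

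The promoters of 3 of the genes described below are shown because they differ in the features that imprinting proteins read. Sequences are from RefSeq, build GRCm38.p6, and run from 250 bases before to 50 bases after the annotated start, with every CG pair, the substrate of DNA methylation, in capitals. Peg3 (chr7:6730370-6730669, minus strand) shares 263 of these bases with the promoter of Usp29 on the opposite strand, so a single CpG-bearing stretch starts both paternally expressed genes.
Peg3 promoter: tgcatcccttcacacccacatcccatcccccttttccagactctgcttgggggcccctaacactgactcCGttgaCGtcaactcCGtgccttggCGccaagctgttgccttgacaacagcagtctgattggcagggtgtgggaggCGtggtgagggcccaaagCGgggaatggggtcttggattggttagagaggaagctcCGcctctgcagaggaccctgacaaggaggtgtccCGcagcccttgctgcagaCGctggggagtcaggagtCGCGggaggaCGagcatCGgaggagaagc
The promoter of Nnat, another paternally expressed gene (chr2:157559828-157560127, plus strand), lies within the maternally expressed gene Blcap.
Nnat promoter: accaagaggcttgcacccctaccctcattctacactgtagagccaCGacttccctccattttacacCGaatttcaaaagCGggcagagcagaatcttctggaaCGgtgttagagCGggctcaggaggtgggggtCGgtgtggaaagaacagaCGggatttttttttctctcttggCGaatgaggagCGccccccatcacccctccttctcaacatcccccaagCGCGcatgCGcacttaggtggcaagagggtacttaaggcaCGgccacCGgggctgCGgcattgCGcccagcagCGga
The promoter of Slc22a18, the maternally expressed gene with the widest upward difference of the list (chr7:143473539-143473838, plus strand), has few CG pairs.
Slc22a18 promoter: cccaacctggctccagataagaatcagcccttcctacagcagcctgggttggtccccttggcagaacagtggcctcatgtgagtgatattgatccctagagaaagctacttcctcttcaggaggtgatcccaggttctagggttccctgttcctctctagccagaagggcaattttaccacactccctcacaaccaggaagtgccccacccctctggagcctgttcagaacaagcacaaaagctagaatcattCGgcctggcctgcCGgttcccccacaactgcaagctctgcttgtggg

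These promoters held 13, 17 and 2 CG pairs for Peg3, Nnat and Slc22a18. Across the 60 annotated promoters of 41 of the 50 listed genes the median was 13 CG pairs, against 7 over all 32851 promoters of the same length. It was 17 for maternally and 10 for paternally expressed genes. The letters TGCCGC, the core that ZFP57 reads when methylated, occurred on either strand in 21.7% of the imprinted promoters and in 11.6% of all promoters. The letters AGGNGGC, from the middle of the CTCF consensus, occurred in 46.7% and 29.4%, and the motifs do not contain each other. The Nnat promoter held 1 match to each motif, and the Peg3 and Slc22a18 promoters held none. TGCCGC itself holds a CG pair, and no comparison was made with promoters of equal CG pair number. Whether the motif shares go beyond the difference in CG pairs was not tested. Several promoters of a gene can overlap and each was counted. These matches are letters and not measured sites, and no binding was measured on the arrays.

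The label of the induced array was checked on the transgene. Ctcfl was at a log2 signal of 9.44 on the induced and 5.99 on the non-induced array, and Ctcf was at 8.66 and 8.93. All 12 ES cell markers examined were at or above the floor, which is the median of all gene values (log2 6.36) and was used here to call a gene bright enough to be read. Oct4, encoded by Pou5f1, was at 11.98 and 11.96, and the ES cell markers averaged 10.25 and 10.27, with 5 of 12 higher. The widest of them differed in both directions, Tfcp2l1 by 0.49, Zfp42 by -0.46, Klf4 by 0.24 and Nanog by -0.22. Fibroblast and mesenchyme markers were higher on the induced array for 18 of 20 genes, with a mean list level of 6.72 against 6.34, and endoderm markers for 11 of 15, with 6.85 against 6.60. Over all genes 10240 of 19938 were higher, and 4986 of the 10697 at or above the floor. Of the 20 fibroblast and mesenchyme markers 12 were at or above the floor, 11 of them higher, among them the collagen genes Col1a1 (7.63 and 7.22) and Col3a1 (6.60 and 6.07) and the surface marker gene Thy1 (7.14 and 6.74), while Dcn, Lum, Postn and Lox were below the floor on both arrays. The widest of the fibroblast list were the matrix and adhesion genes Ccn1 (0.94), Loxl1 (0.85), Thbs1 (0.81) and Col5a1 (0.58), and of the endoderm list Cited1 (0.96), Foxa2 (-0.85), Apoe (0.77) and Hnf4a (0.76). Trophoblast markers were higher for 4 of 8, with Krt7 at 0.70 and Gata3 at -0.60, and neural markers for 5 of 9. The 3 neural markers at or above the floor were Stmn2 at -1.19, Sox1 at 0.26 and Tubb3 at -0.12. The part of these shifts in the differences of imprinted genes was not tested.

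Of the 42 imprinted genes 24 were at or above the floor on at least 1 array. None of the 24 was higher or lower by log2 1, which is 2-fold, where 0.477% of the 10697 genes at this level were higher and 1.79% were lower. At a smaller size of log2 0.58, about 1.5-fold, Slc22a18 was higher and Peg10 was lower, 1 of 24 genes each way, where 5.31% of all genes were higher and 8.45% were lower. Slc22a18 fell short of it when the arrays were centred on their medians (0.56) or a constant of 32 was added on the linear scale (0.54), and Peg10 after lowess (-0.57) or quantile normalization (-0.56). Just short of this size lay Slc38a4 at 0.54 and Peg3 at -0.47. The median difference of the 42 genes was -0.05, with 20 genes above 0 and 22 below, and that of all genes was 0.01. The middle 50% of imprinted genes spanned -0.21 to 0.13, and that of all genes spanned -0.24 to 0.26. At or above the floor the middle 95% ran from -0.55 to 0.59 for the 24 imprinted genes and from -0.89 to 0.72 for all genes. The imprinted genes thus lay inside the spread of the array, and counts of members past the fold were near or below the background shares.

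**Figure D1:**
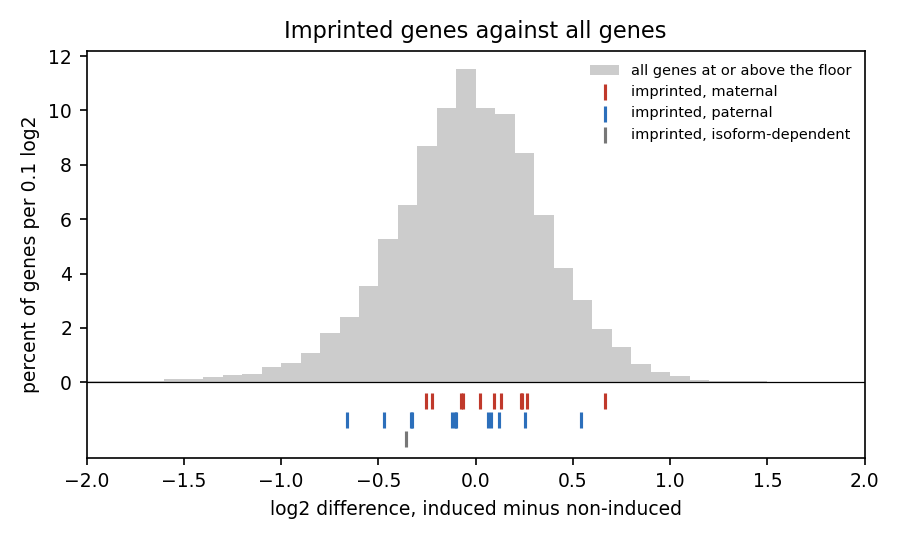
Histogram of log2 differences, induced minus non-induced, for all 10697 genes at or above the floor (gray, in percent of genes per bin, x axis drawn from -2 to 2), with the 24 imprinted genes at this level as ticks under it, colored by the parental allele usually expressed. The ticks lie between -0.66 and 0.66, within the body of the histogram.

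The Kcnq1ot1 locus held 6 measured genes, all maternally expressed, and it contained the imprinted gene with the widest upward difference. Slc22a18, an organic cation transporter gene, was at 7.43 on the induced and 6.77 on the non-induced array, which is 1.58-fold and 0.66 on the log2 scale. Among genes at or above the floor 9.67% differed by at least this much in either direction. Its neighbour Phlda2, which restrains placental growth, was at 10.88 and 10.64, a difference of 0.24. Cdkn1c, which encodes the cyclin-dependent kinase inhibitor p57, was at 10.06 and 10.12, a difference of -0.07. Phlda2 thus had the sign of Slc22a18 at a smaller size, and Cdkn1c was near 0. Kcnq1, the potassium channel gene whose intron holds the promoter of the Kcnq1ot1 noncoding RNA, was at 6.50 and 6.37. Ascl2, a transcription factor gene of the trophoblast, and Tspan32, a tetraspanin gene of blood cells, were below the floor on both arrays, with differences of -0.19 and -0.38. The locus median was 0.03, with 3 genes above 0 and 3 below. Between the members lay Cd81 (difference 0.49) and Tssc4 (-0.45), adjacent genes that differed in opposite directions.

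Igf2, the paternally expressed growth factor gene next to H19, was at 6.69 on the induced and 6.57 on the non-induced array, a difference of 0.12. Igf2r, which encodes the receptor that clears the IGF2 protein, is maternally expressed and was at 7.96 and 7.70, a difference of 0.26. Airn, the paternal noncoding RNA that silences Igf2r, was at 5.02 and 5.26, below the floor on both arrays. Slc22a2, another transporter gene of the cluster, was also below the floor, at 5.73 and 5.61. Of 11 measured genes of IGF signalling 7 were above 0 and 4 below, with a median of 0.11, which rested on dim genes such as Igf1 (0.78). The 8 at or above the floor had 4 above 0 and 4 below, with a median of -0.01, and none passed log2 0.58 in either direction. The widest at that level was Irs2, an adaptor of the insulin and IGF1 receptors, with a difference of 0.34, followed by Igf2bp3 at -0.15, Igfbp2 at -0.14 and Igfbp3 at 0.14.

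**Figure D2:**
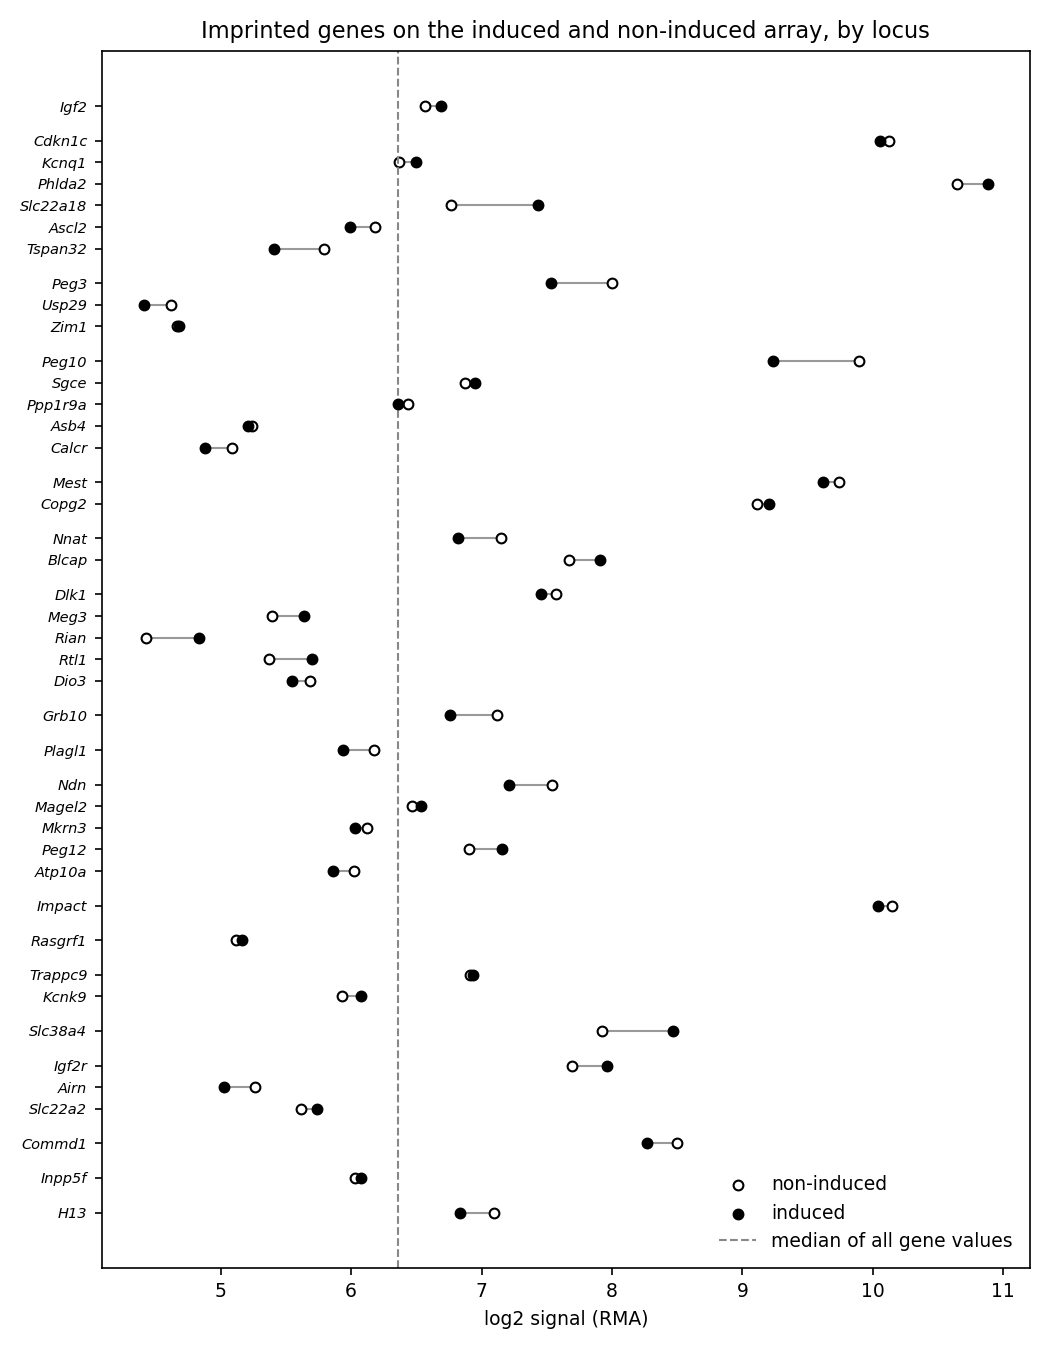
Log2 signal of the 42 measured imprinted genes on the induced array (filled) and the non-induced array (open), grouped by locus, with the floor of 6.36 as a dashed line. Most pairs nearly touch, and the longest lines belong to Slc22a18 (7.43 and 6.77), Peg10 (9.23 and 9.90), Slc38a4 (8.47 and 7.92) and Peg3 (7.53 and 8.00).

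At the Peg10 locus the paternally expressed gene Peg10, derived from a retrotransposon and required for the placenta, was at 9.23 on the induced and 9.90 on the non-induced array. This difference of -0.66, 1.58-fold lower, was matched in width by 9.68% of genes at or above the floor. Sgce, the sarcoglycan gene that starts beside Peg10 on the opposite strand and is also paternally expressed, was at 6.95 and 6.87, a difference of 0.08 that became -0.02 when each array was centred on its median. Ppp1r9a, which encodes the actin-binding protein neurabin, was at 6.36 and 6.43. Calcr, the calcitonin receptor gene, and Asb4, an ubiquitin ligase subunit gene, were below the floor with differences of -0.20 and -0.02. Genes around Peg10 that are not on the list also differed by more than the size of log2 0.58. Bet1, a vesicle transport gene inside the locus, was at 7.66 and 8.46, a difference of -0.80, and Vps50, a flanking gene of endosome recycling, was at 7.94 and 8.66, a difference of -0.72. Col1a2, a collagen gene in the same stretch and one of the fibroblast markers, differed by 0.47 in the other direction.

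At the Peg3 locus Peg3, which encodes a large zinc finger protein, was at 7.53 on the induced and 8.00 on the non-induced array, which is -0.47 on the log2 scale, 1.39-fold lower. Of genes at or above the floor 21.5% differed at least as much. Usp29, which shares the promoter stretch printed above, was at 4.41 and 4.62 and therefore below the floor, with a difference of the same sign (-0.20). Zim1, a maternally expressed zinc finger gene of the cluster, was at 4.68 and 4.67, also below the floor. The nearest measured genes outside the cluster were above 0 for 5 of 6, and Aurkc, the Aurora kinase of meiosis, was at 7.20 and 6.47, a difference of 0.73. Only 3 of these 6 were at or above the floor, 2 of them above 0 and 1 below (-0.55), so the signs of bright flanking genes were mixed.

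Mest, a paternally expressed hydrolase gene, was at 9.62 on the induced and 9.74 on the non-induced array, and Copg2, the coatomer gene that overlaps its end, was at 9.20 and 9.11. Nnat, the neuronatin gene of the promoter shown above, was at 6.82 and 7.15, a difference of -0.33. Blcap, the maternally expressed gene around it, was at 7.91 and 7.67, a difference of 0.23, so that host and nested gene differed by 0.57 from each other. Overlapping genes can share signal on an array. Grb10, an adaptor that dampens insulin and IGF signalling, was at 6.76 and 7.12, a difference of -0.36. Plagl1, a zinc finger gene, was below the floor at 5.94 and 6.17.

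At the Snrpn locus the paternally expressed genes differed in both directions. Ndn, which encodes necdin, was at 7.21 on the induced and 7.54 on the non-induced array, a difference of -0.33. Magel2, a related MAGE gene, was at 6.53 and 6.47, and Peg12, which encodes a binding protein of the kinase GSK3, was at 7.16 and 6.90, a difference of 0.25. Mkrn3, a ring finger gene that restrains puberty, and Atp10a, a maternally expressed phospholipid transporter gene, were below the floor with differences of -0.09 and -0.17. The 5 differences spread from -0.33 to 0.25 about a median of -0.09.

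Several loci held only 1 or 2 measured genes of the list. Slc38a4, an amino acid transporter gene expressed from the paternal allele, was at 8.47 on the induced and 7.92 on the non-induced array, higher by 0.54 on the log2 scale, 1.46-fold, and 16.2% of genes at or above the floor differed at least as much. Pced1b, separated from it by Amigo2 (difference 0.33), was at 6.97 and 5.87, a difference of 1.10, the only one of 111 flanking genes past log2 1. Impact, a regulator of translation and paternally expressed, was at 10.04 and 10.14, and Ss18, a chromatin gene and the third gene measured after it, was at 7.50 and 8.17. Commd1, a copper transport gene with maternal bias, was at 8.27 and 8.50, and H13, the signal peptide peptidase gene, was at 6.84 and 7.09. These differences of -0.10, -0.23 and -0.26 had the same sign and were within the middle 50% of all genes at or above the floor, -0.28 to 0.22. Trappc9, a vesicle trafficking gene, was at 6.94 and 6.91, and the maternally expressed potassium channel gene Kcnk9 beside it was below the floor at 6.08 and 5.93. Rasgrf1, an exchange factor for Ras, and Inpp5f, a phosphatase gene with a paternally expressed short isoform, were below the floor with differences of 0.05 each. The flanks leave out only the 50 listed genes, and some, such as Cd81, Ddc and Nap1l4, are imprinted genes outside the list. Over all loci 74 flanking genes were at or above the floor. Of these 3 lay above and 4 below by at least log2 0.58, against 5.31% and 8.45% of all genes. Those not yet named were Plpp4 near Inpp5f (0.70), Cep41 before Mest (-0.67) and Chrac1 after Trappc9 (-0.63). Pced1b and Plpp4 passed the floor on the induced array alone and Cep41 on the non-induced array alone, and without such genes 1 lay above and 3 below.

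The Dlk1 and Meg3 locus is a chain of paternally expressed protein genes and maternally expressed noncoding RNAs, the latter thought to form a long transcript that carries many microRNAs and small nucleolar RNAs. Dlk1, which encodes a transmembrane relative of Notch ligands, was at 7.46 on the induced and 7.57 on the non-induced array. The noncoding RNA gene Meg3 was at 5.64 and 5.39, a difference of 0.25, and Rian at 4.84 and 4.43, a difference of 0.41, both below the floor. Rtl1, a retrotransposon-derived gene of the placenta, was at 5.70 and 5.37, and Dio3, a deiodinase gene that inactivates thyroid hormone, was at 5.55 and 5.69. Dlk1 was thus the only listed gene of the locus at or above the floor, and the locus median of 0.25 rested on dim genes. The measured genes that flank the locus were above 0 for 5 of 6, with a median of 0.27, close to the locus median. The 4 flanking genes at or above the floor had a median of 0.20, with 3 above 0 and 1 below. Dlk1, the only listed gene at that level, was at -0.11.

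The microRNA genes of this stretch were read after the member values had been seen, by their position between Dlk1 and Dio3 alone. Of 40 such genes, 10 were at or above the floor, and 8 of these were higher on the induced array, with a median of 0.30. Among the 59 microRNA genes at or above the floor elsewhere in the genome 42 were higher, with a median of 0.20, so most bright microRNA genes lay above 0 on this array pair wherever they were. In the stretch 3 of the 10, Mir679, Mir431 and Mir337, passed the floor only on the induced array, where they were higher, and of the 7 above it on both arrays 5 were higher, with a median of 0.13, against 34 of 47 elsewhere with a median of 0.19. Of the 30 below the floor in the stretch 24 were lower, with a median of -0.30, against 108 of 198 elsewhere with a median of -0.06. The probe sets do not tell the precursor from the mature microRNA. Past log2 0.58 lay 3 of the 10, all higher, against 6 of 59 higher and 9 of 59 lower elsewhere and 5.31% higher over all genes, and of those above the floor on both arrays Mir673 alone. The mature sequences of these 3 genes are shown to tell which target seeds they carry, with the seed, bases 2 to 8, in capitals (RefSeq, GRCm38.p6, chromosome 12, plus strand).
mmu-miR-679-5p: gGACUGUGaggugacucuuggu
mmu-miR-679-3p: aGCAAGGUccuccucacaguag
mmu-miR-431-5p: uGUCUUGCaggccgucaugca
mmu-miR-431-3p: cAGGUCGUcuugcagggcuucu
mmu-miR-673-5p: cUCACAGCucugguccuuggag
mmu-miR-673-3p: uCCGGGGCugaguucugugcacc
Each of these seeds was carried by 1 mature microRNA of the stretch, so the 3 genes do not form a seed family. Mir679 (chr12:109715587-109715608 for the 5p strand) was at 6.88 on the induced and 5.62 on the non-induced array, a difference of 1.26. Mir431 (chr12:109590459-109590479) was at 7.24 and 6.31, a difference of 0.93. Both were under the floor on the non-induced array. Mir673 (chr12:109572004-109572025) was above the floor on both arrays, at 8.40 and 7.58, a difference of 0.83. A small nucleolar RNA gene of the stretch, DQ267102, was at 6.40 and 5.75, a difference of 0.66, and also passed the floor on the induced array alone.

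**Figure D3:**
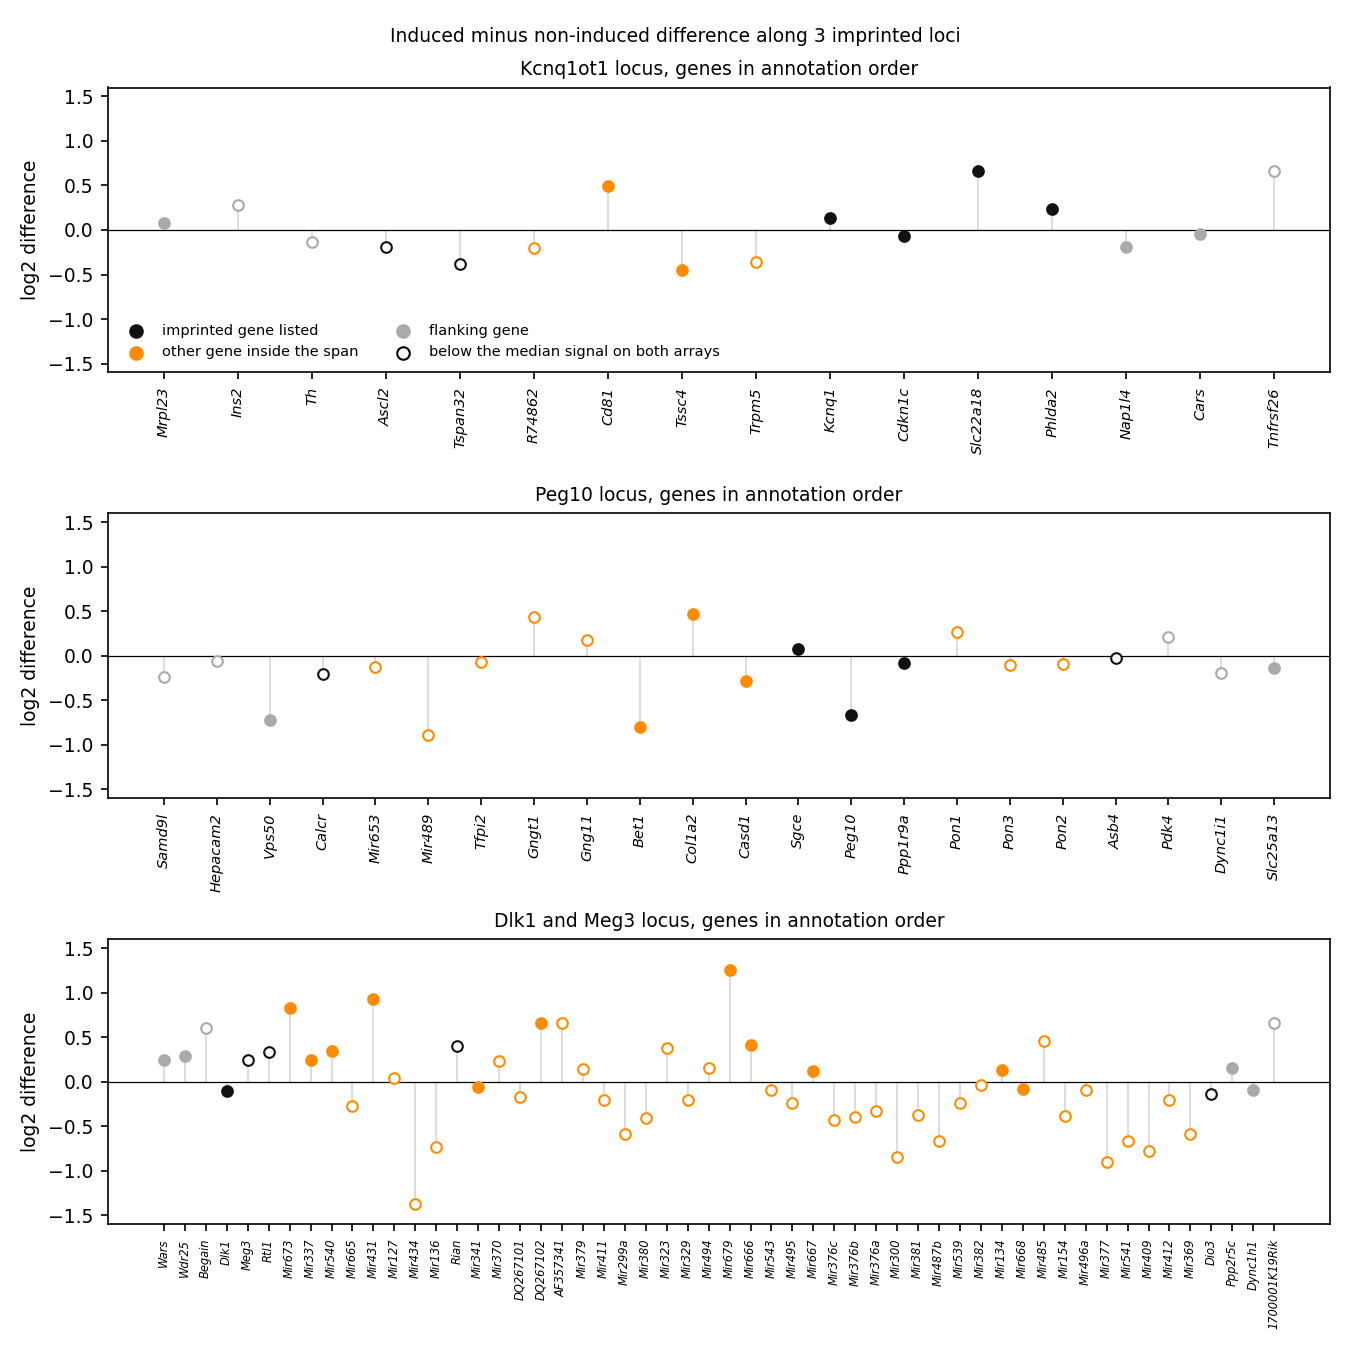
Log2 differences (positive where the induced array was higher) of each measured gene in annotation order along the Kcnq1ot1, Peg10 and Dlk1 and Meg3 loci, with listed imprinted genes in black, other genes inside in orange, flanking genes in gray, and open symbols for genes below the floor on both arrays. Differences of both signs occur along each locus, from Slc22a18 at 0.66 in the top panel and Bet1 at -0.80 in the middle panel to Mir679 at 1.26 in the bottom panel.

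By parental allele the 21 maternally expressed genes had a median difference of 0.02, with 12 above 0 and 9 below, and the 20 paternally expressed genes a median of -0.11, with 8 above and 12 below. The medians were 0.13 apart. The sign of the maternal median turned negative after lowess removal of the trend with signal level and when each array was centred on its own median, the latter of which moves the median of all genes at or above the floor from -0.03 to -0.13. Within loci that held genes of both kinds the maternal median was the higher of the pair in 6 of 7, a count made after the values had been seen. The gap was 0.57 at Nnat, 0.43 at both the Dlk1 and Meg3 and the Igf2r locus, 0.35 at Peg3, 0.22 at Mest and 0.21 at Peg10. The gap was -0.15 at this locus, Snrpn, where the paternal median was the higher, although paternal Ndn (-0.33) was below maternal Atp10a (-0.17). The same count was 6 of 7 under each other setting run over all 42 genes, and 3 of 3 when only genes at or above the floor were kept. Centring shifts every difference equally and each listed gene had 1 probe set, so neither centring nor probe set averaging could change the count. The remaining settings reused the same 2 arrays, so they are no independent check. Each median rests on few genes, and at Mest and Nnat on 1 gene of each kind. For scale, 18534 pairs of adjacent measured genes had a median gap of 0.34 regardless of sign, with quartiles of 0.16 and 0.60. The 6 gaps with the higher maternal median lay between these quartiles, and the gap at Snrpn was narrower in size. The sizes were thus ordinary for neighbouring genes. Such pairs compare single genes and not medians, and they give no background for the count of signs. At Peg10 the paternal median lay lower through Peg10 (-0.66), while paternal Sgce (0.08) was above each of the 3 maternal genes. At the Dlk1 and Meg3 locus paternal Rtl1 (0.33) was above maternal Meg3 (0.25). A side rested on 1 gene below the floor at Igf2r (paternal Airn), Peg3 (maternal Zim1) and Snrpn (maternal Atp10a). At the Dlk1 and Meg3 locus both maternal genes, Meg3 and Rian, were below the floor.

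**Figure D4:**
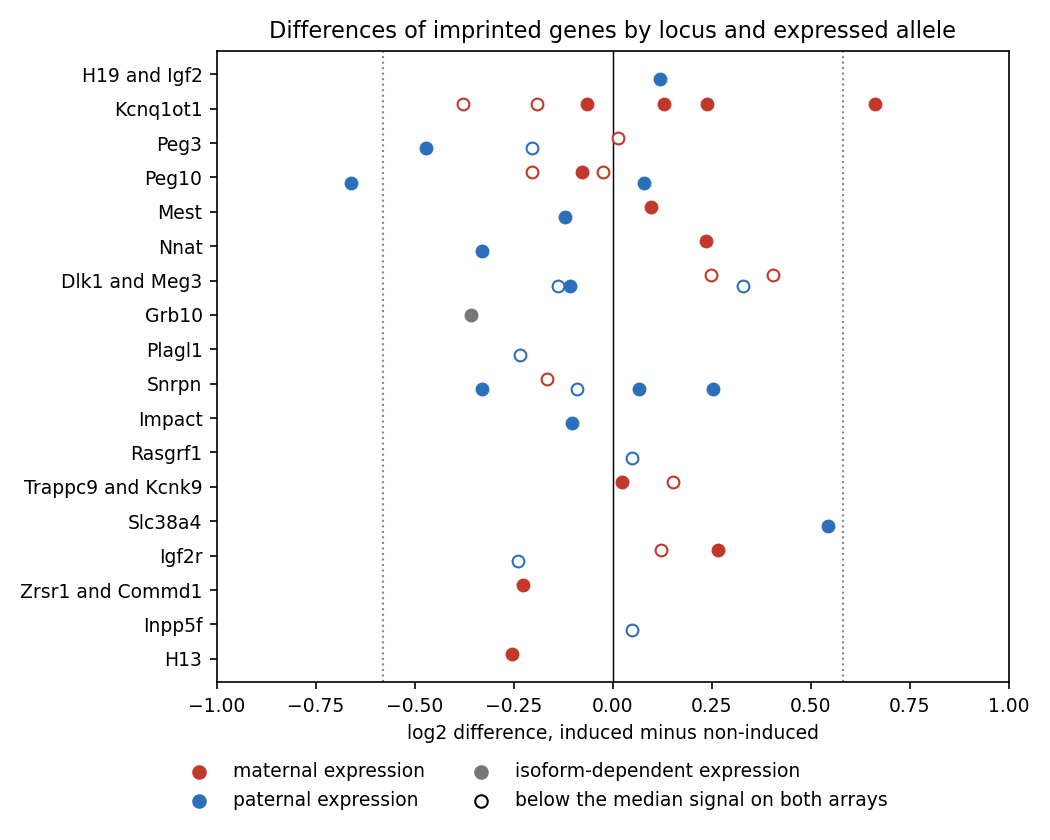
Log2 differences (positive where the induced array was higher) of the 42 imprinted genes at their 18 loci, colored by the allele usually expressed (red maternal, blue paternal, gray isoform-dependent), open below the floor on both arrays, with dotted lines at -0.58 and 0.58. Slc22a18 and Peg10 alone lie outside the lines, and red symbols lie to the right of blue ones at Peg3, Mest, Nnat and Igf2r.

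Lists of genes that act on imprints held single members with differences wider than those of any imprinted gene measured on its own. Of 15 genes that maintain imprints, all at or above the floor, 14 were lower on the induced array, with a median of -0.20 and a mean level of 8.88 against 9.23, where 53.4% of all genes at this level were lower. Dppa3, which encodes the factor Stella that shields the maternal genome from demethylation, was at 7.16 on the induced and 8.99 on the non-induced array, a difference of -1.83. The next widest were Rif1, a gene of replication timing, at -0.80, Hells, a chromatin remodeler of DNA methylation, at -0.54 and Cbx3, a heterochromatin protein gene, at -0.43. Zfp57 was at 11.04 and 10.79, the single member above 0, and its partner Trim28, the maintenance methyltransferase gene Dnmt1 and its recruiter Uhrf1 had differences of -0.13, -0.14 and -0.03. Trim28, Dnmt1 and Uhrf1 were thus within the middle 50% of all genes at or above the floor, and Zfp57 at 0.24 was just above it. After the trend with signal level was removed by lowess, 12 of the 15 were lower and the median was -0.10. By log2 0.58 or more 2 of the 15 were lower and 0 higher, against 8.45% and 5.31% of all genes at this level. By log2 1 or more 1 of the 15 was lower, against 1.79%.

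Of 9 measured genes that set or erase imprints 8 were lower, with a median of -0.35. These 8 were the ones at or above the floor, where 53.4% of all genes were lower. After lowess 8 of the 9 were still lower, with a median of -0.28. By log2 0.58 or more 1 was lower and 0 higher, against 8.45% and 5.31% of all genes at or above the floor. Dnmt3l, the cofactor needed for imprints in germ cells, was at 8.80 on the induced and 9.64 on the non-induced array, a difference of -0.84. The de novo methyltransferase gene Dnmt3b differed by -0.51, the histone methyltransferase gene Setd2 by -0.50 and Tet1, which oxidizes methylcytosine, by -0.38. In the list of CTCF, CTCFL and cohesin genes 9 of 11 were lower, and Ctcfl was the single gene higher by log2 0.58 or more. All 11 were at or above the floor, where 53.4% of all genes were lower, and the median of -0.26 became -0.17 after lowess. Stag2, a cohesin subunit gene, was at 8.52 and 9.48, a difference of -0.96, and the cohesin regulators Pds5b and Nipbl differed by -0.48 and -0.35. Of 21 further imprinted genes outside the list 14 were lower, against 48.6% of all genes, with a median of -0.10. None of the 21 passed log2 0.58 at or above the floor. The widest of these were Cd81 at 0.49, Tssc4 at -0.45, the decarboxylase gene Ddc at -0.44 and Osbpl5, a lipid transfer gene, at -0.42.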

How the data were processed

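The authors deposited log2 signals per probe set, computed with robust multi-array averaging (RMA: background correction, quantile normalization and summary over probes), which narrows fold differences most for dim genes. That the scale is log2 was taken from the naming of RMA and from values between 1.36 and 14.47. Software version, array annotation and genome build were not given in the sources used here. RNA input was 300 ng per array. Arrays carry no counting error, and their number, 1 per group, limits the precision.

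A single gene symbol was given for 21789 of the 35557 probe sets, and the 1621 with several symbols and 12147 without one entered no gene result. Symbols were updated by gene identifier through RefSeq (GRCm38.p6, 21698 matched), which also gave gene order. A gene with several probe sets (999 of 19938) took its brightest one by mean. Each difference is the induced minus the non-induced value. Between the arrays Pearson's r was 0.976 over genes, which are not independent replicates, with medians of 6.40 and 6.30.

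The main measure was the difference and the count of members past a fold with the higher value at or above the floor. All measured members were named, with Ctcfl and Ctcf, up to 4 members at or above the floor with the widest difference of each of 10 gene lists, and neighbours past log2 0.58 at or above the floor. Up to 3 measured protein-coding genes per side were taken as flanks. The members and lists were chosen with earlier results of these data known. The microRNA genes, the within-locus comparison of alleles and genes named beyond this rule (Pou5f1, Col1a1, Col1a2, Col3a1, Thy1, Trim28, Dnmt1, Uhrf1, Zfp57, Igf1, Amigo2, Mir337, the small nucleolar RNA gene and the dim fibroblast markers) were chosen after values were seen.

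Alternatives were centring each array on its median, removing the trend on mean level with a lowess fit (fraction 0.3), quantile normalization of the deposited columns, averaging a gene's probe sets, a constant of 32 on the linear scale, and other floors. Steps were tested on simulated data. The software was Python 3.11.15 (matplotlib 3.10.9, statsmodels 0.14.6, scipy 1.17.1, pandas 2.3.3, numpy 2.4.6).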

Additional observations from a re-analysis of the deposited data

How the results depend on the processing

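No imprinted gene at or above the floor differed by log2 1 in any of the settings. The medians of all imprinted, maternal and paternal genes, and of each locus that kept more than 1 gene, moved by less than 0.252. Loci left with 1 gene at or above the floor could move further. The Dlk1 and Meg3 locus went from 0.25 to -0.11 for Dlk1 alone, and the Peg3 locus from -0.20 to -0.47 for Peg3 alone. Counts at log2 0.58 were less stable, since they rested on single genes close to it. The 1 gene higher by 0.58 or more became 0 with centred arrays, 0 with the constant of 32, 0 with the floor at the 75th percentile, 2 after lowess and 2 after quantile normalization. The 1 gene lower by 0.58 or more became 0 after lowess and 0 after quantile normalization. Slc22a18 ranged from 0.54 to 0.67, Peg10 from -0.76 to -0.56, Slc38a4 from 0.44 to 0.64 and Peg3 from -0.57 to -0.39. With genes at or above the floor only, 3 loci in place of 6 had the higher maternal median, because only 3 loci held both kinds. The imprinted median ranged from -0.14 to -0.02 and the paternal median from -0.20 to -0.05, while the maternal median, -0.08 to 0.10, changed sign with centring and lowess. Of 55 values 10 changed sign with centring, 10 after lowess and 3 after quantile normalization. Over all genes, those at or above the floor lower by 0.58 or more numbered 1312 with centring, 817 after lowess, 786 after quantile normalization and 630 with the constant, against 904, and those higher numbered 326, 504, 567 and 223, against 568. Those lower by log2 1 numbered 268 with centring, 173 after lowess, 164 after quantile normalization and 108 with the constant, against 191, and those higher 25, 35, 49 and 10, against 51. Mir679 ranged from 0.88 to 1.26. No paired analysis was possible because each group had 1 array, and no array could be left out.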

Other observations

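Some probe sets carry the symbol of an imprinted gene together with other symbols, so their values belong to no single gene and entered no comparison. The probe set of Snurf and Snrpn, which share a transcript, was at a log2 signal of 9.83 on the induced and 9.96 on the non-induced array, a difference of -0.13. The probe set of Gnas, which encodes a G protein subunit, and its antisense gene Gnasas1 was at 7.22 and 6.94, a difference of 0.28. A probe set listed for Ube3a, the ubiquitin ligase gene of the Snrpn locus, and 3 other symbols was at 8.57 and 9.30, a difference of -0.72, wider than that of any imprinted gene measured on its own. In the Dlk1 and Meg3 locus, a probe set shared by Rian and AF357355 was at 5.15 and 4.81, and one shared by Mirg and Mir410 at 2.87 and 3.18, both below the floor.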
